A study of Mus musculus with 24 samples.

Results

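The aminoacyl-tRNA synthetases were followed in mouse heart after doxorubicin, with and without hesperitin. The genes were chosen by symbol: a capital letter (the code of an amino acid) followed by "ars", with or without a final 1 or 2, and in addition Eprs, Farsa and Farsb. No measured value entered this choice. It gave 37 of the 10393 genes in the table of 16 h and 30 of the 7723 genes in the table of 72 h, and all 30 of the later table were also in the earlier one. Symbols ending in 2 name mitochondrial enzymes, which made 20 cytosolic and 17 mitochondrial genes at 16 h, and 19 and 11 at 72 h. Farsa, Ears2, Nars2, Pars2, Rars2, Sars2 and Wars2 were in the table of 16 h alone. These 7 genes were therefore not analysed here at 72 h.

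Heart RNA came from wild-type mice (genotype WT for every sample), whose strain, sex and age the labels do not state. Mice of group V had vehicle, those of group H hesperitin (10 mg/kg each day), those of group DOX doxorubicin (25 mg/kg), and those of group DOXH the 2 compounds together. Each group had 3 libraries. Comparisons at 16 h cover these 4 groups, whereas those at 72 h are of DOX and V only. Doxorubicin is an anthracycline chemotherapy drug known for injury to the heart, and hesperitin is the spelling the labels use for hesperetin, a flavanone of citrus fruit.

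An aminoacyl-tRNA synthetase joins an amino acid to the tRNA that carries its anticodon, the step that gives the genetic code its meaning. In mammals most amino acids have a pair of such enzymes encoded by separate nuclear genes. The cytosolic enzyme charges tRNAs for ribosomes in the cytoplasm. The mitochondrial enzyme is imported into the organelle, where it charges tRNAs made from mitochondrial DNA for the translation of respiratory chain subunits. The heart, rich in mitochondria, depends on both systems, and inherited defects of several mitochondrial synthetases, AARS2 among them, are known causes of cardiomyopathy in people. Gars and Kars each encode both forms and were counted as cytosolic. Mitochondria have no glutaminyl-tRNA synthetase of their own: glutamate is first placed on that tRNA and then converted by an amidotransferase made of the products of Gatb, Gatc and Qrsl1. Several cytosolic synthetases sit together in a multisynthetase complex held by the scaffold proteins Aimp1, Aimp2 and Eef1e1.

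Library totals at 16 h ran from 9255708 to 11074498 counts outside H, whose libraries were deeper (17664089 to 19869092), and at 72 h from 16607839 to 20587603. Levels below are in CPM, counts scaled to the library total by TMM factors within a table. No test compared these levels between the tables or between genes. Where they are set beside each other in that way, for Lars2 at both times and for Sars2 as a low transcript, this is description only. How many animals stand behind a sample is not stated, and p-values reflect only how far these libraries spread, which may be technical. The DOXH libraries stood apart from each other: on the first principal component of log2 CPM at 16 h, replicates 1, 2 and 3 scored 8.28, 35.1 and -17.7. The DOX libraries scored 29.4 to 42.2 and the V libraries -20.7 to -18.0. DOXH replicate 3 thus lay beside the vehicle libraries and DOXH replicate 2 among the DOX libraries. The calls of the DOXH comparisons and part of their named values are therefore given below also without replicate 2 or replicate 3. Medians without them are given for DOXH against DOX only. The labelled tissue showed its defining markers at both times: all 10 cardiomyocyte markers looked for were present, with summed levels of 33760 to 65876 CPM per library at 16 h and 21531 to 57281 CPM at 72 h.

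Doxorubicin against vehicle at 16 h left most synthetase genes near their vehicle level and lowered a minority of both classes. Of the 37 genes 10 passed edgeR's quasi-likelihood test at an adjusted p under 0.05, 2 of them higher in DOX (Nars and Mars2) and 8 lower (Dars, Farsb, Lars, Aars2, Fars2, Lars2, Sars2 and Tars2). Over all 10393 genes tested 32.3% passed, 15.6% higher and 16.6% lower, so the share among the synthetases, 27.0%, was no larger than that of genes at large. Of the 20 cytosolic genes 1 rose and 3 fell, at a median log2 fold change of 0.02, and the median of all genes was also 0.02 to 2 decimals. Of the 17 mitochondrial genes 1 rose and 5 fell, at a median of -0.16.

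**Figure D1:**
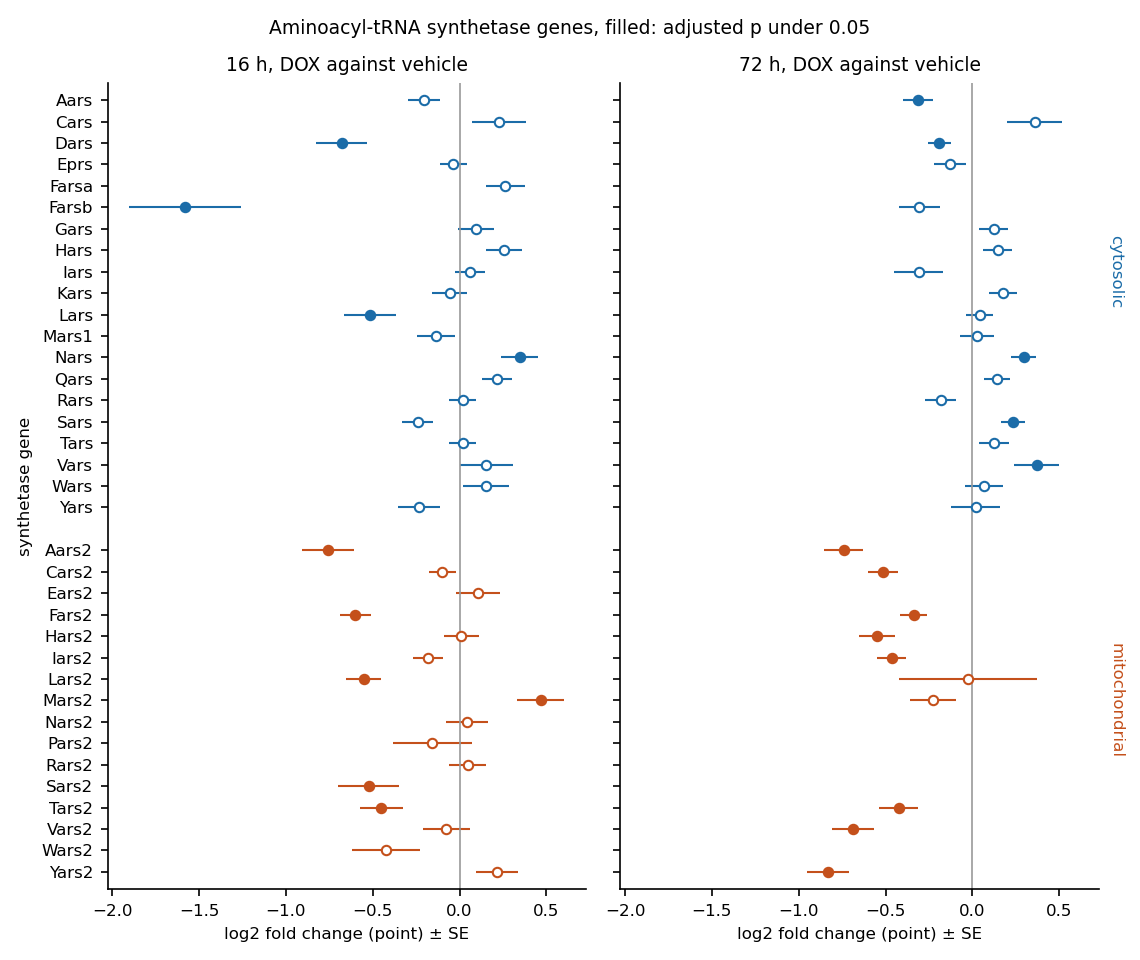
Log2 fold change of DOX against vehicle for the synthetase genes at 16 h (left) and 72 h (right), with bars of 1 SE, cytosolic genes in blue and mitochondrial genes in orange, and filled points for an adjusted p under 0.05. At 16 h Farsb stands farthest left at -1.58, and at 72 h the mitochondrial points lie below 0, those of Mars2 and Lars2 unfilled.

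Farsb, which encodes the beta subunit of the cytosolic phenylalanyl-tRNA synthetase, changed most. It read 33.1, 33.5 and 31.2 CPM in the 3 V libraries and 11.9, 9.82 and 10.9 CPM in the 3 DOX libraries. The groups did not overlap, and every DOX library was at less than 12 CPM. The log2 fold change was -1.58 ± 0.32 (SE, n = 3 per group; edgeR adjusted p = 0.00584), a level 2.99-fold lower. As in every comparison at 16 h, the SE and p rest on the spread of all 12 libraries, those of H and DOXH included. The enzyme works as a tetramer of alpha and beta subunits, whose other gene is Farsa. Farsa read 13.6, 11.8 and 11.6 CPM in V and 13.8, 15.2 and 15.5 CPM in DOX, a difference of 0.26 ± 0.11 (adjusted p = 0.0893). Farsb lies on chromosome 1 of GRCm38 from 78417975 to 78488897, minus strand, and 8.13% of the 31-base words of its transcripts also occur, on the opposite strand, in Sgpp2.

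Dars and Lars encode the aspartyl- and leucyl-tRNA synthetases of the multisynthetase complex. Dars read 62.0, 54.3 and 63.3 CPM in V against 31.6, 39.4 and 41.1 CPM in DOX, without overlap (-0.68 ± 0.15, adjusted p = 0.00676). Lars read 40.2, 36.2 and 41.9 CPM in V against 25.3, 27.3 and 30.1 CPM in DOX (-0.51 ± 0.15, adjusted p = 0.0234). All 3 DOX libraries were again below all 3 V libraries. The Lars call was lost without DOX replicate 1 or 2 or V replicate 1 or 3, at adjusted p from 0.0621 to 0.0784. The other 6 genes of the complex, Eprs, Iars, Kars, Mars1, Qars and Rars, did not pass. Among them Qars, the glutaminyl enzyme, had the largest value, 0.22 ± 0.09 (adjusted p = 0.0701, and 0.021 with only V and DOX in the fit). Of the scaffold genes Aimp2 read -0.36 ± 0.13 (adjusted p = 0.0525), Aimp1 -0.29 ± 0.11 (adjusted p = 0.0605) and Eef1e1 0.09 ± 0.16 (adjusted p = 0.69).

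Nars, the asparaginyl enzyme, was the cytosolic gene that rose. It read 68.5, 64.4 and 61.9 CPM in V and 87.6, 80.7 and 79.5 CPM in DOX, again without overlap (0.35 ± 0.11, adjusted p = 0.0283). This call was lost when any of the 6 libraries was left out, at adjusted p from 0.0509 to 0.0951 and values from 0.31 to 0.39. The 16 cytosolic genes that did not pass lay between -0.24 (Sars, the seryl enzyme, adjusted p = 0.0562) and 0.26 (Farsa), and 5 of them had groups that did not overlap. Non-overlap was found in 56.4% of all genes, and in 9 of the 20 cytosolic and 11 of the 17 mitochondrial synthetase genes. Sars was called lower with RLE or upper quartile factors (adjusted p = 0.048 and 0.0453) and with only V and DOX in the fit (0.028), and Wars, the tryptophanyl enzyme known as an interferon-inducible gene, was called higher without DOX replicate 1 (0.31, adjusted p = 0.0447).

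Among mitochondrial enzymes Aars2, which charges alanine, read 20.5, 19.4 and 21.8 CPM in V and 13.3, 11.04 and 12.2 CPM in DOX (-0.76 ± 0.15, adjusted p = 0.00507). Fars2, the phenylalanine enzyme, works as a single chain, unlike its cytosolic counterpart. It read 37.3, 33.5 and 35.9 CPM in V and 24.3, 22.8 and 23.4 CPM in DOX (-0.60 ± 0.09, adjusted p = 0.00251). Lars2, the leucine enzyme, read 48.4, 59.3 and 55.5 CPM in V and 36.4, 41.2 and 33.7 CPM in DOX (-0.55 ± 0.10, adjusted p = 0.00407). In each of these 3 genes every DOX library was below every V library, and the calls of Aars2, Fars2 and Lars2, like those of Dars and Farsb, held under every alternative run. Fars2 overlaps Nrn1 on the opposite strand, with 8.13% of its 31-base words shared, and the counting's strand setting is not given in the sources used here.

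Tars2 and Sars2, the threonine and serine enzymes, also fell. Tars2 read 28.7, 27.7 and 28.5 CPM in V and 21.2, 20.2 and 20.8 CPM in DOX (-0.45 ± 0.12, adjusted p = 0.0173), and Sars2, a low transcript, read 6.36, 5.35 and 7.12 CPM in V and 4.92, 4.56 and 3.61 CPM in DOX (-0.52 ± 0.18, adjusted p = 0.0397). Both were without overlap, but the Tars2 call was lost without DOX replicate 2 or V replicate 1 or 3 (adjusted p 0.0504 to 0.0543), and the Sars2 call without DOX replicate 2 or 3 or V replicate 1 or 3 (0.072 to 0.136) and with the replicate block (0.0633). Mars2, the methionine enzyme, was the mitochondrial gene that rose, from 17.2, 14.2 and 17.7 CPM in V to 20.2, 24.7 and 22.9 CPM in DOX (0.47 ± 0.14, adjusted p = 0.0224). Its call was lost without DOX replicate 2 or 3 or V replicate 1 or 2 (0.0503 to 0.0852). The 11 mitochondrial genes that did not pass lay between -0.42 (Wars2) and 0.22 (Yars2), and Wars2 was called lower without DOX replicate 2 (-0.62, adjusted p = 0.0481).

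These falls came with lower cardiomyocyte transcripts. All 10 cardiomyocyte markers were called lower in DOX at 16 h, against 16.6% of all genes, and their summed level was 33760 to 36389 CPM in DOX and 58455 to 65876 CPM in V. In whole heart, fewer cells of a type and less RNA per cell cannot be told apart. Of the markers of other cell types, 3 of 9 macrophage and monocyte genes were called (2 higher and 1 lower), 2 of 8 endothelial genes (both lower), 2 of 5 erythroid genes (both lower, all 5 negative, median -0.65) and 0 of 8 fibroblast genes with edgeR (0 also at an unadjusted p under 0.05), where 32.3% of all genes were called. The 5 neutrophil markers present had log2 fold changes of 1.11 to 2.62 without passing. The part of these values in the synthetase values was not tested.

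Hesperitin alone gave no call in the family. Of 37 genes 0 passed in H against V with edgeR, where 0% of all genes passed, and 0 with DESeq2 or limma voom. At an unadjusted p under 0.05 there were 2 synthetase genes, Cars2 at -0.18 ± 0.08 (adjusted p = 0.769) and Nars2 at 0.27 ± 0.12 (adjusted p = 0.769), among 664 genes in all. Non-overlapping groups were found for 6 synthetase genes and for 15.6% of all genes. Farsb read 34.6, 30.3 and 33.8 CPM in H, on both sides of the V range of 31.2 to 33.5 CPM (0.01 ± 0.30).

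The combination did not give a common level. In DOXH Farsb read 12.4 and 11.5 CPM in replicates 1 and 2 and 33.2 CPM in replicate 3, so that 2 libraries were at the DOX level and 1 at the V level. Dars (52.4, 37.8 and 58.3 CPM), Lars (39.2, 24.5 and 38.1 CPM) and Aars2 (15.7, 12.3 and 19.6 CPM) had their lowest DOXH value in replicate 2, and for Lars that value was below all 3 DOX libraries.

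**Figure D2:**
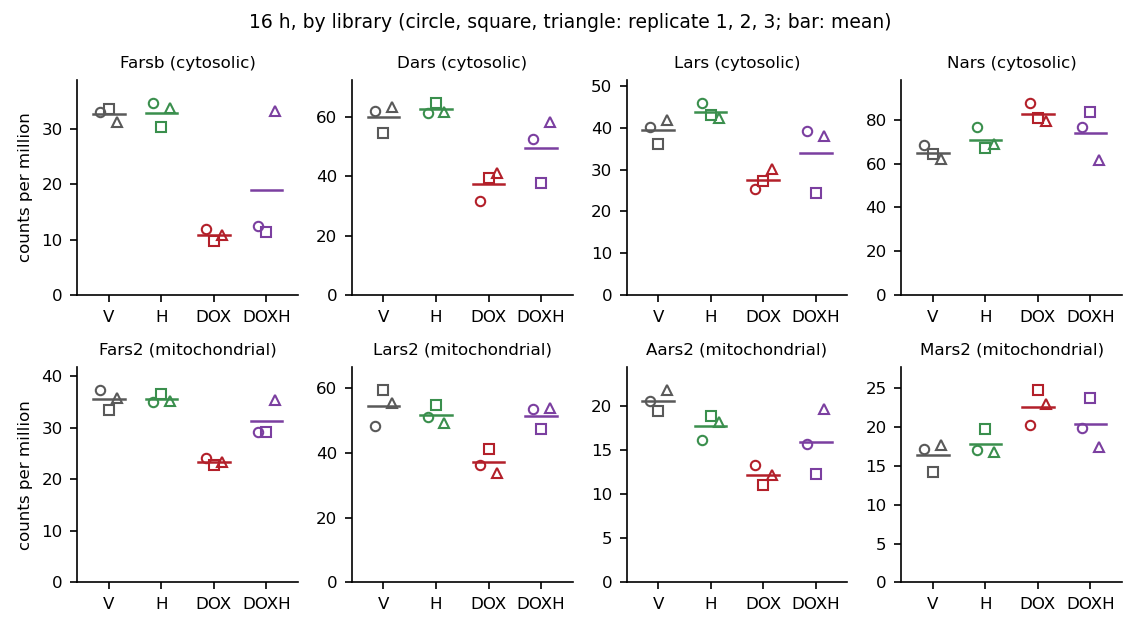
CPM of 8 synthetase genes in each library at 16 h, with the 4 groups on the horizontal axis, 1 symbol per replicate number and a bar at the group mean; the vertical axes start at 0. Farsb in DOXH splits into 2 libraries at 11.5 and 12.4 and 1 at 33.2, while Fars2 and Lars2 in DOXH all lie above the DOX libraries.

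In DOXH against DOX 0 of 37 synthetase genes passed with edgeR, as did 0% of all genes. At an unadjusted p under 0.05 there were 8 (Dars, Farsb, Fars2 and Lars2 among them) among 1958 genes in all, and limma voom called 0. DESeq2 called 2, Fars2 and Lars2, and 379 of all 10393 genes. Non-overlap was found in 5 synthetase genes and in 18.8% of all genes. The median log2 fold change was 0.02 for cytosolic and 0.18 for mitochondrial genes, against -0.01 for all genes. Without DOXH replicate 2 the medians were -0.03 and 0.24, and without DOXH replicate 3 they were 0.03 and 0.12, so the sign of the cytosolic median rested on replicate 2.

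Fars2 read 29.3, 29.1 and 35.4 CPM in DOXH, each above the highest DOX library, 24.3 CPM. The difference was 0.41 ± 0.09 (edgeR adjusted p = 0.13; DESeq2 adjusted p = 0.0123). Lars2 read 53.5, 47.2 and 53.7 CPM in DOXH, all above the DOX libraries, and differed by 0.47 ± 0.10 (edgeR adjusted p = 0.13; DESeq2 adjusted p = 0.00711). Farsb differed by 0.80 ± 0.33 (adjusted p = 0.224), and by 0.13 (adjusted p = 0.735) without DOXH replicate 3. Without DOXH replicate 2 there were 7 calls, all higher in DOXH, which included Dars at 0.57, Farsb at 1.06, Lars at 0.49, Aars2 at 0.54, Fars2 at 0.46 and Lars2 at 0.53, with adjusted p from 0.0119 to 0.0443. Over all genes that fit called 1554. Without replicate 1 or replicate 3 of DOXH, edgeR called 0 synthetase genes, and without replicate 3 Fars2 was at 0.31 (adjusted p = 0.303), Lars2 at 0.44 (0.303) and Aars2 at 0.21 (0.631).

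DOXH against V shares its vehicle libraries with the DOX comparison, so the values stand side by side. Farsb was at -1.58 in DOX and at -0.78 ± 0.31 in DOXH (adjusted p = 0.263), Aars2 at -0.76 and -0.37 ± 0.15 (adjusted p = 0.263), and Fars2 at -0.60 and -0.19 ± 0.09 (adjusted p = 0.309). Lars2 was at -0.55 in DOX and at -0.08 ± 0.10 in DOXH (adjusted p = 0.713). Of 37 genes 0 passed in DOXH against V with edgeR, DESeq2 or voom, with 0% of all genes passing in edgeR. At an unadjusted p under 0.05 there were 5 synthetase genes among 1749 of all 10393 genes, and 5 synthetase genes (13.5%) had groups without overlap, against 19.2% of all genes. Both shares were below those of all genes. Without DOXH replicate 3, however, 5 were called: Farsb at -1.45 (adjusted p = 4.78e-05), Nars at 0.30 (0.0384), Aars2 at -0.55 (0.0198), Fars2 at -0.28 (0.0364) and Tars2 at -0.36 (0.0166). Over all genes that fit called 1674. Without DOXH replicate 2, 0 were called, with Farsb at -0.52 (0.684), Aars2 at -0.22 (0.684), Fars2 at -0.14 (0.737) and Lars2 at -0.02 (0.981).

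The interaction asks whether the change with doxorubicin differed between mice with and without hesperitin. Of 37 genes 0 passed with edgeR, DESeq2 or voom, as did 0% of all genes in edgeR, and 3 had an unadjusted p under 0.05, among 1228 of all 10393 genes, a share below that of all genes. They were Aars2 at 0.60 ± 0.21 (adjusted p = 0.366), Fars2 at 0.41 ± 0.13 (adjusted p = 0.347) and Lars2 at 0.55 ± 0.14 (adjusted p = 0.334). Without DOXH replicate 2 Aars2 was called (0.75, adjusted p = 0.0465), with Fars2 at 0.46 (0.072) and Lars2 at 0.60 (0.0508). Without DOXH replicate 3 none of them was, with Aars2 at 0.42 (0.545), Fars2 at 0.31 (0.479) and Lars2 at 0.52 (0.44). The summed level of the cardiomyocyte markers was 43871, 41071 and 61144 CPM in DOXH replicates 1, 2 and 3. The last lay inside the V range of 58455 to 65876 CPM. In the same libraries Aars2 read 15.7, 12.3 and 19.6 CPM, Fars2 29.3, 29.1 and 35.4 CPM, and Lars2 53.5, 47.2 and 53.7 CPM. Replicates 1 and 3 of Lars2 lay inside its V range of 48.4 to 59.3 CPM. The part of the marker levels in the synthetase values was not tested.

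At 72 h calls among mitochondrial genes went in 1 direction and those among cytosolic genes in both. In DOX against V 9 of 11 mitochondrial genes fell and 0 rose, and all 11 log2 fold changes were negative, with a median of -0.47. Of the 19 cytosolic genes 3 rose (Nars, Sars and Vars) and 2 fell (Aars and Dars), with a median of 0.07. Of all 7703 genes tested 53.7% passed, 26.5% higher and 27.2% lower, with a median of 0.01. The mitochondrial share, 81.8%, was therefore above the background and the cytosolic share, 26.3%, below it. Per library, the median difference of the mitochondrial genes from the mean of V was -0.54, -0.52 and -0.45 in the 3 DOX libraries and lay between -0.03 and 0.06 in the V libraries. For the cytosolic genes it was 0.06, 0.02 and 0.18 in DOX and between -0.05 and 0.06 in V.

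**Figure D3:**
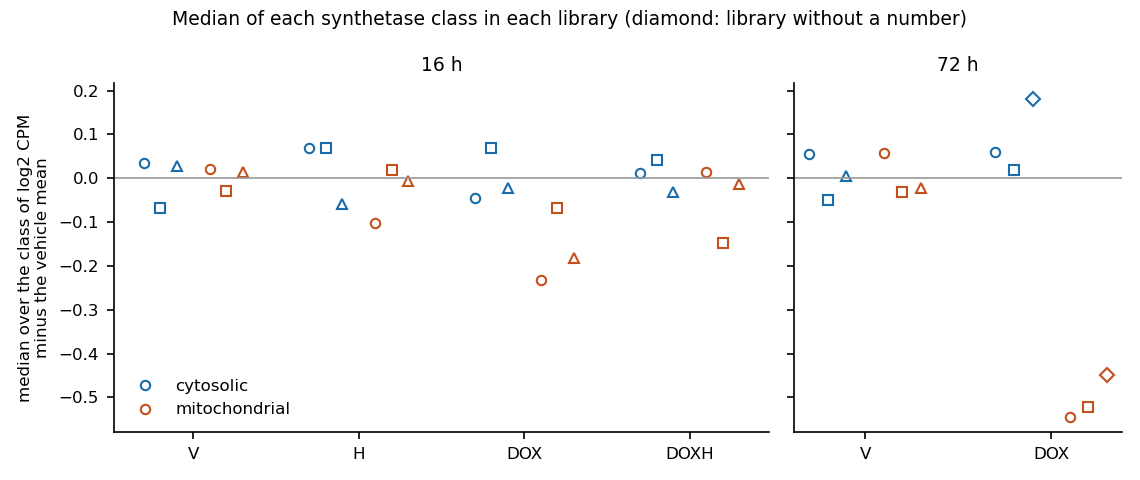
For each library, the median over the cytosolic (blue) and mitochondrial (orange) synthetase genes of the log2 CPM minus the mean of the vehicle libraries of that time, at 16 h (left) and 72 h (right). At 72 h the mitochondrial medians of the 3 DOX libraries, over 11 genes, lie between -0.54 and -0.45, apart from all other points. At 16 h they are taken over 17 genes and lie between -0.23 and -0.07, so the 2 times do not cover the same genes.

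Yars2, the mitochondrial tyrosine enzyme, fell most. It read 19.1, 18.7 and 17.4 CPM in V and 9.13, 9.87 and 12.03 CPM in DOX (-0.83 ± 0.12, edgeR adjusted p = 0.000484), a level 1.78-fold lower with no overlap. Aars2 was low again, at 17.4, 17.4 and 15.2 CPM in V and 9.13, 10.6 and 10.1 CPM in DOX (-0.74 ± 0.11, adjusted p = 0.000548). Vars2, the valine enzyme, read 13.7, 12.96 and 13.5 CPM in V and 8.62, 7.77 and 8.58 CPM in DOX (-0.69 ± 0.12, adjusted p = 0.00146). In none of these genes did a DOX library reach the lowest V library.

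Hars2, the histidine enzyme, read 17.2, 15.8 and 16.6 CPM in V and 11.3, 12.4 and 10.2 CPM in DOX (-0.55 ± 0.10, adjusted p = 0.00208). Cars2, the cysteine enzyme, read 25.4, 23.8 and 24.1 CPM in V and 16.5, 16.5 and 18.4 CPM in DOX (-0.52 ± 0.08, adjusted p = 0.000928). Iars2, the isoleucine enzyme, read 96.3, 80.8 and 86.2 CPM in V and 65.7, 61.0 and 64.1 CPM in DOX (-0.47 ± 0.09, adjusted p = 0.00174). All 3 were again without overlap between the groups. Tars2 (-0.42 ± 0.11) and Fars2 (-0.34 ± 0.08) also fell, at adjusted p of 0.0116 and 0.00579, and the Tars2 call was lost without V replicate 1 (-0.33, adjusted p = 0.0502). The 2 that did not pass were Mars2 (-0.23 ± 0.13, adjusted p = 0.17, and called at -0.40 with the replicate block, 0.0466) and Lars2 (-0.03 ± 0.40, adjusted p = 0.959). Some of these counts may be uncertain if the counting ignored the strand, a setting not given in the sources used here. Of the 31-base words of Iars2 22.4% also occur in Rab3gap2, of those of Vars2 7.28% in Gm20483 and of those of Cars2 4.94% in Naxd. Each of these lies on the opposite strand.

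Among cytosolic genes Nars rose again, from 57.5, 55.9 and 59.8 CPM in V to 73.3, 70.1 and 69.3 CPM in DOX (0.30 ± 0.07, adjusted p = 0.00629). This call held under every alternative run at 72 h. Sars rose from 36.5, 36.6 and 37.1 CPM to 42.4, 43.2 and 44.1 CPM (0.24 ± 0.07, adjusted p = 0.0153), without overlap, and lost its call without V replicate 2 (0.23, adjusted p = 0.0574) or 3 (0.24, adjusted p = 0.0528) and with the replicate block (0.0804). Vars, the valyl enzyme, read 17.0, 13.9 and 16.1 CPM in V and 20.9, 16.8 and 23.1 CPM in DOX (0.37 ± 0.13, adjusted p = 0.0374), with overlapping groups, and the call was lost without any library except DOX replicate 2 (adjusted p from 0.0536 to 0.132), with voom (0.0529) and with the replicate block (0.0671).

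Aars, the alanyl enzyme, fell from 40.2, 34.7 and 35.3 CPM in V to 29.0, 28.7 and 31.1 CPM in DOX (-0.31 ± 0.09, adjusted p = 0.0145), a call lost without V replicate 1 (-0.24, adjusted p = 0.054). Its transcripts share 13.8% of their 31-base words with Exosc6. Dars read 58.1, 59.5 and 60.3 CPM in V and 50.7, 52.6 and 52.7 CPM in DOX (-0.19 ± 0.07, adjusted p = 0.0366), and this call was lost without any 1 of the 6 libraries (0.0503 to 0.104), with upper quartile factors (0.0709), with DESeq2 (0.074) and with the replicate block (0.143). Farsb, whose fold change was lowest at 16 h, read 33.9, 27.2 and 37.6 CPM in V and 25.7, 26.3 and 27.9 CPM in DOX at 72 h, with overlap (-0.31 ± 0.12, adjusted p = 0.0532). Without V replicate 2 it was called lower (-0.43, adjusted p = 0.00921). The 14 cytosolic genes that did not pass lay between -0.31 (Iars) and 0.36 (Cars), and Iars was called lower without V replicate 2 (-0.42, adjusted p = 0.041) or the DOX library that has no number (-0.42, adjusted p = 0.0352), and with the replicate block (-0.43, adjusted p = 0.0118). Iars shares 14.6% of its 31-base words with the pseudogene Gm4849. Non-overlap was found in 8 of 19 cytosolic and 9 of 11 mitochondrial genes, against 63.5% of all genes.

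The difference between the times was tested directly in 1 fit of the V and DOX libraries of both times. Each time has its own table, so a difference between times cannot be told apart from a difference between the tables. Of the 30 genes present at both times, 9 passed, against 35.6% of the 7407 genes tested (16.8% higher and 18.8% lower at 72 h). In 4 cytosolic genes the change with doxorubicin was higher at 72 h than at 16 h: Farsb by 1.26 ± 0.16 (edgeR adjusted p = 0.000162), Lars by 0.54 ± 0.11 (0.0033), Dars by 0.47 ± 0.13 (0.0127) and Sars by 0.46 ± 0.09 (0.00179). In 5 mitochondrial genes it was lower: Yars2 by -1.07 ± 0.16 (0.000474), Mars2 by -0.72 ± 0.17 (0.00638), Vars2 by -0.63 ± 0.13 (0.0023), Hars2 by -0.58 ± 0.14 (0.00736) and Cars2 by -0.43 ± 0.10 (0.00555). The other way round, 0 cytosolic genes were lower and 0 mitochondrial genes higher with edgeR, DESeq2 or voom on all libraries of the fit. With the replicate block Lars2 was called higher (0.52, adjusted p = 0.0322). Fars2 was called higher in edgeR without V replicate 2 of 16 h (0.29, adjusted p = 0.047) or of 72 h (0.28, adjusted p = 0.049). Iars was called lower without V replicate 2 of 72 h (-0.49, adjusted p = 0.0456) or the DOX library that has no number (-0.51, adjusted p = 0.0337). Kars (higher) and Iars2 (lower) also gained calls with a library left out, in the direction of their class. In the main fit Iars2 (-0.30 ± 0.11, adjusted p = 0.0527) and Fars2 (0.24 ± 0.09, adjusted p = 0.0586) did not pass. Over the 11 mitochondrial genes in both tables, 1 was called higher and 4 lower at 16 h, and 0 and 9 at 72 h. The median log2 fold change of these genes was -0.18 at 16 h and -0.47 at 72 h.

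The other genes of mitochondrial translation were taken from fixed lists of known function. Beside their counts stand the shares of all genes called, 32.3% at 16 h (15.6% higher and 16.6% lower) and 53.7% at 72 h (26.5% higher and 27.2% lower). Of the mitochondrial translation factors 3 of 12 were called lower at 16 h and 0 higher (median -0.15), and at 72 h 7 of 8 were called lower and 0 higher (median -0.73). Counted in either direction, their share called was thus below that of all genes at 16 h and above it at 72 h. Counted as lower alone, it was above that of all genes at both times. Tufm, which brings charged tRNA to the mitochondrial ribosome, read 160, 147 and 163 CPM in V and 131, 134 and 133 CPM in DOX at 16 h (-0.24 ± 0.07, adjusted p = 0.026), and 122, 110 and 101 CPM in V and 53.3, 56.7 and 64.8 CPM in DOX at 72 h (-0.93 ± 0.10, adjusted p = 0.000118). The groups did not overlap at either time. Tsfm, the exchange factor of Tufm, was at -1.02 ± 0.12 at 72 h (adjusted p = 0.000134), the initiation factor Mtif2 at -0.87 ± 0.09 (8.9e-05) and the recycling factor Gfm2 at -0.70 ± 0.08 (9.85e-05).

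Of the amidotransferase genes, Qrsl1 fell at both times, by 0.62 on the log2 scale at 16 h (SE 0.17, adjusted p = 0.0181) and by 1.01 at 72 h (SE 0.10, adjusted p = 8.43e-05). It read 22.1, 18.2 and 20.9 CPM in V and 10.0, 10.4 and 9.93 CPM in DOX at 72 h. Gatb and Gatc did not pass at either time, with 72 h values of 0.18 ± 0.09 and -0.22 ± 0.11. Of the mitochondrial tRNA processing and modification genes 1 of 13 was called lower at 16 h, Hsd17b10, and 3 of 5 at 72 h, Mto1 (-0.73 ± 0.14), Trmt5 (-0.55 ± 0.15) and Trmt10c (-0.34 ± 0.11). Among all genes 16.6% were called lower at 16 h and 27.2% at 72 h. The share called lower was thus below that of all genes at 16 h and above it at 72 h. In either direction 32.3% and 53.7% of all genes were called. Mto1 modifies the wobble base of some mitochondrial tRNAs, and Trmt5 and Trmt10c are tRNA methyltransferases.

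On the cytosolic side, 1 of 8 elongation factors was called higher at 16 h, Eef1a1 (0.43 ± 0.13, adjusted p = 0.029), and 5 of 8 at 72 h, with 0 lower and a median of 0.26, where 15.6% and 26.5% of all genes were called higher. Eef1a1, which delivers charged tRNA to the cytosolic ribosome, was at 0.96 ± 0.14 (adjusted p = 0.000415), Eef1b2, its exchange factor, at 0.55 ± 0.09 (0.00074) and Eef2, which moves the ribosome along, at 0.61 ± 0.10 (0.000836). Tarsl2, a threonyl-tRNA synthetase-like gene whose symbol falls outside the naming rule, fell at both times (-0.75 ± 0.19, adjusted p = 0.0142, and -0.70 ± 0.11, adjusted p = 0.00082). Trnt1, which adds the CCA end to tRNAs, was called higher at 16 h (0.52 ± 0.12, adjusted p = 0.0101).

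**Figure D4:**
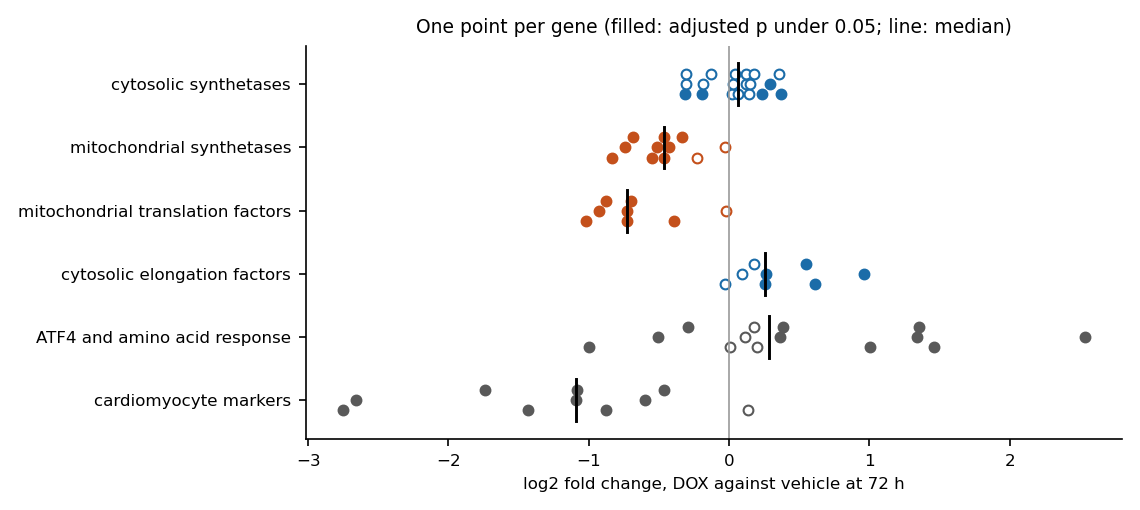
Log2 fold change of DOX against vehicle at 72 h for each gene of 6 groups, with filled points for an adjusted p under 0.05 and a black line at the group median. The mitochondrial synthetases (median -0.47) and mitochondrial translation factors (median -0.73) lie to the left of 0, the cytosolic synthetases (0.07) and elongation factors (0.26) around or right of it, and the cardiomyocyte markers (-1.09) farthest left.

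Markers of cell types were also called in the same libraries at 72 h, where 53.7% of all genes were called, 26.5% higher and 27.2% lower. Cardiomyocyte markers were called lower in 9 of 10 genes (median -1.09), Tnnt2 being the exception at 0.13 ± 0.11, and their summed level was 21531 to 26346 CPM in DOX and 51445 to 57281 CPM in V. Of 8 endothelial markers 5 were called higher and 1 lower, of 8 macrophage and monocyte markers 4 higher and 1 lower, of 7 fibroblast markers 2 higher and 1 lower, and 3 of 3 neutrophil markers higher. All 5 erythroid markers were called lower, with sums of 20.6 to 33.0 CPM in DOX and 1436 to 3523 CPM in V. Their part in the synthetase values was not tested.

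Many cytosolic synthetase genes are known targets of ATF4, the transcription factor of the integrated stress response, which binds the C/EBP-ATF composite element and drives amino acid import and charging when amino acids run short. The promoter windows were searched for that element, and 5 of the matches are shown, 1 for each gene that has the element, because the values of these genes follow below. RefSeq windows of GRCm38.p6, from 250 bases before to 50 bases after the start of a gene, were at hand for 27 of the 37 genes, Hars, Lars, Nars and Vars being among those without one. In 20 of the 27 windows the bases from the start onward were found in an annotated transcript of the gene. In the rest the start was not borne out in this way. The element, searched on both strands as TGATGNAA, was in 5 of the 27 windows (18.5%), all of cytosolic genes, and in 3.97% of all 32851 windows of the same length. Each sequence is given 5′ to 3′ on the strand of the gene with the match in capitals, which reads as the reverse complement where the element lies on the other strand.
Aars, chr8:111033840-111033869: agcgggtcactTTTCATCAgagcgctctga
Gars, chr6:55037960-55037989: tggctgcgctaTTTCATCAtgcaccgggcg
Iars, chr13:49682126-49682155: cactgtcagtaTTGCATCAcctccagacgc
Tars, chr15:11399655-11399684: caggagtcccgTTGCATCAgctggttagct
Yars, chr4:129189895-129189924: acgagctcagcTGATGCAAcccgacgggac

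The 5 genes with the element did not pass at 16 h, at log2 fold changes of -0.20 (Aars), 0.09 (Gars), 0.06 (Iars), 0.02 (Tars) and -0.23 (Yars), and at 72 h Aars was called, lower. Of the interferon elements, the interferon-stimulated response element (a pair of GAAA runs with 2 bases of any kind between them, both strands) was in 1 of 27 windows (Qars), or 3.70% against 3.44% of all windows, and the gamma-activated sequence (TTC and GAA with 3 bases between them) in 3 (Aars, Kars and Nars2), or 11.1% against 8.30%. A match describes letters only. Where no match was found, nothing follows about the factor.

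Other genes of the ATF4 and amino acid response were called in both directions. At 16 h 2 of 20 were called higher and 4 lower, with a median of -0.20, a share near the 32.3% of all genes. At 72 h 7 of 14 were called higher and 3 lower, with a median of 0.28, where 26.5% of all genes were called higher and 27.2% lower. Sesn2, a stress-induced inhibitor of growth signalling, read 3.28, 1.36 and 3.04 CPM in V, 20.3, 18.9 and 17.5 CPM in DOX, and 10.1, 20.6 and 3.01 CPM in DOXH at 16 h, the last value again at the V level (DOX against V 2.89 ± 0.54, adjusted p = 0.00432). Slc3a2, the heavy chain of amino acid exchangers, was higher at both times (0.92 ± 0.24, adjusted p = 0.0165, and 1.34 ± 0.12, adjusted p = 5.28e-05). Ddit3, which encodes CHOP, was lower at 16 h (-0.67 ± 0.15, adjusted p = 0.00753). Psat1, an enzyme of serine synthesis, rose at 72 h from 1.75, 1.47 and 2.23 CPM in V to 11.2, 7.57 and 13.03 CPM in DOX (2.54 ± 0.34, adjusted p = 0.000303).

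Of the integrated stress response kinases and phosphatases 1 of 7 was called higher at 16 h, the kinase gene Eif2ak2 (0.86 ± 0.15, adjusted p = 0.00344). At 72 h 1 of 5 was called higher, the phosphatase subunit gene Ppp1r15a (1.33 ± 0.13, adjusted p = 7.81e-05), and 1 lower, Eif2ak1 (-0.23 ± 0.08, adjusted p = 0.0462). These shares were below the 32.3% and 53.7% of all genes called. Of the interferon gamma response genes 4 of 13 were called higher and 1 lower at 16 h, with Tap1 at 1.94 ± 0.30 (adjusted p = 0.00269). At 72 h 1 of 8 was called higher and 3 lower. These shares were near the 32.3% and 53.7% of all genes. Wars read 31.3, 26.7 and 31.1 CPM in V and 25.3, 36.1 and 37.6 CPM in DOX at 16 h (0.15 ± 0.13, adjusted p = 0.389), with DOX replicate 1 below all V libraries and the other two above them.

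Lars2 calls for separate reading at 72 h. It read 599, 772 and 385 CPM in V and 538, 838 and 348 CPM in DOX, with overlapping groups and the largest SE of the 30 genes. At 16 h all its values lay between 33.7 and 59.3 CPM. The 72 h values were high and low in the same libraries as Rn18s-rs5, a ribosomal RNA gene (9731, 15204 and 6344 CPM in V and 9272, 13858 and 5849 CPM in DOX), and Mir6236 (77.2, 92.8 and 44.2 CPM in V and 59.8, 85.2 and 36.7 CPM in DOX). Both are in the table of 72 h alone and were chosen after their values were seen. The part of ribosomal RNA in the Lars2 counts was not tested. The annotated transcripts of Lars2 share no identical run longer than 12 bases with mt-Rnr2, the mitochondrial large ribosomal RNA. That search for runs did not cover Rn18s-rs5 or Mir6236. At 72 h mt-Rnr2 read 9638, 13311 and 12228 CPM in V and 9596, 8437 and 9240 CPM in DOX. Without Lars2, 9 of 10 mitochondrial genes fell at 72 h, with a median of -0.49.

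**Figure D5:**
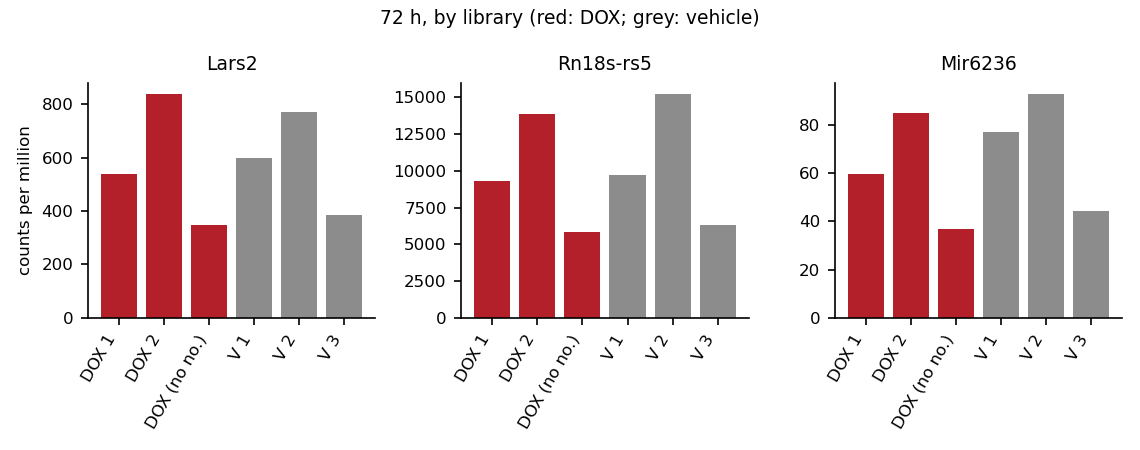
CPM of Lars2, Rn18s-rs5 and Mir6236 in each library at 72 h (bars from 0; DOX in red, vehicle in grey). All 3 genes are highest in replicate 2 of each group and lowest in vehicle replicate 3 and in the DOX library without a number, so Lars2 runs from 348 to 838 CPM in DOX and from 385 to 772 CPM in vehicle.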

How the data were processed

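The authors deposited expected counts, estimated reads per gene, in 1 table per time, the time being taken from the name of the table. Per the submitters' processing notes RSEM and DESeq2 were used with GRCm38 (mm10). Per the labels' protocols the libraries were poly(A)-selected, from RNA of heart tissue. The sources used here give no tool versions, annotation, strand setting or filter behind the tables. At 72 h, 6 columns matched no label and were not used, so the H and DOXH groups of that time were not analysed here, and 1 DOX column has a number no label has and entered without a number.

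Expected counts were rounded, scaled by TMM and filtered with filterByExpr, which kept 10393 genes at 16 h and 7703 at 72 h. Differences were tested with edgeR 4.0.16 (R 4.3.3), with group means, the robust quasi-likelihood fit, Benjamini-Hochberg adjustment over all genes and a threshold of 0.05. The fits used 12 libraries at 16 h, 6 at 72 h and the 12 V and DOX libraries for the difference between times. The SE is the absolute log2 fold change divided by the square root of F, and a prior count of 2 went into log2 CPM. The tests were checked on simulated counts. As alternatives, size factors by RLE or upper quartile, unfiltered genes, DESeq2 1.42.0, limma 3.58.1 voom, a replicate block, only the groups compared and each library left out were run. At 72 h and in the difference between times the replicate block also left out the DOX library without a number. V replicate 3 of 72 h then stood alone in its block and did not bear on the difference. Shared 31-base words and positions come from GENCODE M21 (GRCm38), which matched all 37 genes, and promoter windows from RefSeq. A gene counted in the totals and a promoter sequence are not reported here by themselves. Any synthetase gene could be named; from each other list, up to 4 genes with the smallest p in DOX against V of that time or in DOXH against DOX. Tnnt2, Rn18s-rs5 and Mir6236 fall outside this rule and were named after their values were seen, as were genes that share sequence with a synthetase gene. The members and lists were chosen with earlier results of these data known. Counts of 9255708 to 20587603 per library and 3 libraries per group set the precision.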

Additional observations from a re-analysis of the deposited data

Results flagged for a closer look

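The change with doxorubicin differed between 72 h and 16 h, by edgeR's test of that difference, in 9 synthetase genes. Time and table cannot be told apart in that test. The difference of the log2 fold changes was positive, higher at 72 h, for Farsb (1.26), Lars (0.54), Dars (0.47) and Sars (0.46). It was negative, lower at 72 h, for Yars2 (-1.07), Mars2 (-0.72), Vars2 (-0.63), Hars2 (-0.58) and Cars2 (-0.43). The Dars and Hars2 differences lost their call with the replicate block (adjusted p = 0.0611 and 0.0735), and that of Dars also with all 18 libraries in the fit (0.0532). Mars2 was at 0.47 at 16 h, which passed its own test, and at -0.23 at 72 h, which did not, whereas Sars was at -0.24 at 16 h, which did not pass, and at 0.24 at 72 h, which did.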

How the results depend on the processing

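Of the 10, 14 and 9 synthetase calls in DOX against V at 16 h, at 72 h and in the difference between times, 5, 9 and 7 held under every alternative run, and 0 changed sign. Leaving out 1 library took the cytosolic calls at 16 h from 4 to between 2 and 3, and the mitochondrial calls from 6 to between 3 and 6. Calls over all genes went from 3352 to between 1928 (without V replicate 1) and 2409, with a fall of over 1.5 times also without DOX replicate 1 or V replicate 3. At 72 h the cytosolic calls went from 5 to between 2 and 4. In DOXH against DOX leaving out 1 library gave 0 to 3 cytosolic and 0 to 4 mitochondrial calls and 0 to 1554 over all genes, in DOXH against V 0 to 2, 0 to 3 and 0 to 1674, in the interaction 0 to 1 mitochondrial calls and 0 to 254 over all genes, and in H against V 0 to 47 over all genes. The highest of these rested on leaving out DOXH replicate 2 (DOXH against DOX and the interaction), DOXH replicate 3 (DOXH against V) and H replicate 1 (H against V).

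DESeq2 called 2 mitochondrial genes in DOXH against DOX, and over all genes 379 there, 131 in DOXH against V, 12 in H against V and 42 in the interaction, all from 0 with edgeR. With only the groups compared, 1 gene was called in DOXH against DOX and 1 in DOXH against V. In DOX against V at 16 h that fit called 4571 genes in place of 3352. It called 6 cytosolic synthetase genes in place of 4 and 7 mitochondrial ones in place of 6. Values near 0 changed sign without passing: Lars2 at 72 h, -0.03, became 0.0060 with upper quartile factors and ran from -0.40 to 0.23 over the libraries left out, and Lars, 0.04, from -0.0056 to 0.10. Iars at 16 h, 0.06, ran from -0.0034 to 0.12. Replicate numbers are not given as pairs: deviations of same-numbered libraries correlated at -0.42 to 0.25 at 16 h, and the 2 such pairs at 72 h at 0.20 and 0.24 (other pairs -0.24 to 0.02), too few to take the numbers as pairs. With the replicate block, which at 72 h also left out the DOX library without a number, 3 cytosolic genes were called at 72 h and 10 mitochondrial genes in place of 9. The Sars2 call at 16 h was lost with it. Shifts with the block at 72 h thus mix the block with the loss of a library. The cause of these shifts was not tested. With 3 libraries per group, small shifts lie near the limit of what could be called.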
